A study of Mus musculus with 3 samples.

Results

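The NRF2 antioxidant genes are 10 genes that the stress-responsive transcription factor NRF2 is known to drive: Slc7a11, Gclc, Gclm, Gsr, Txnrd1, Srxn1, Prdx1, Nqo1, Hmox1 and Sod2. Their probes were found through the gene name in the array's own annotation, a rule that uses no measured value, although the list was drawn up with earlier results of these data known. The 10 genes had 13 probes, with 2 probes each for Gsr, Prdx1 and Hmox1, among 27630 probes for 17964 named genes that were tested. All 13 probes were above background in both dyes on all 3 arrays.

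The RNA came from the hippocampus of male mice killed by cervical dislocation at postnatal day 120. One group had mothers that were bred at 15 to 18 months of age (older mothers), and the control group had mothers bred at 3 months (young mothers), while the fathers of both were 3-month-old virgin males. Neither a strain nor any genetic change is named in the labels. Each of the 3 replicates of a group was a pool of equal amounts of RNA from 3 animals, and whether pools shared litters is not stated, so p-values measure the spread between these pools. Every array carried 1 older-mother pool in the dye Cy3 and 1 young-mother pool in the dye Cy5. No array had the dyes swapped, so a dye effect and an effect of maternal age cannot be told apart, and all 3 arrays lay on 1 slide and shared 1 scan.

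NRF2, encoded by Nfe2l2, is held in the cytoplasm and marked for degradation by KEAP1 until oxidants or electrophiles modify KEAP1. It then enters the nucleus, pairs with a small MAF protein and binds antioxidant response elements, which raises genes for glutathione synthesis, the thioredoxin system, quinone reduction and haem breakdown. In the brain this programme is known mostly from astrocytes, which export glutathione precursors that neurons use.

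The 10 genes differed little between the groups. Gclm, the modifier subunit of the enzyme that starts glutathione synthesis, rose by 1.17-fold in the older-mother pools, although median centring turned its sign, as given with its values. By limma with Benjamini-Hochberg adjustment over all probes, Gclm was the 1 of 10 genes higher at an adjusted p under 0.05 and 0 of 10 were lower, when each gene was represented by its brightest probe. Across all genes tested the same way, 7.34% were higher and 12.2% were lower. At an unadjusted p under 0.05, 2 of the 10 genes were higher and 1 was lower, against 15.1% and 24.3% of all genes. The dimmer of the Gsr probes fell, while its brighter probe did not pass.

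The differences in the set were as small as those of genes in general. The log2 ratio (older over young mothers) had a median of 0.02 over the 10 genes and -0.03 over all genes, and the median absolute log2 ratio was 0.11 in both. The mean ratio was above 0 for 6 genes and below 0 for 4. For 5 of the 10 genes the 3 arrays gave ratios of 1 sign, which held for 60.6% of all genes. The median of the 10 genes was 0.09 on array 1, -0.02 on array 2 and 0.04 on array 3, so the set as a whole did not keep 1 sign over the arrays. No gene of the set reached 1.5-fold on average. Among all genes that also passed the adjusted limma test, 119 reached this size upward and 76 downward. Genes that reached it without passing the test are not in these counts. The standard deviation over the arrays had a median of 0.09 on the log2 scale in the set and 0.08 over all genes. The 95% interval of limma lay within -0.5 and 0.5 on the log2 scale for all 10 genes, with a median half-width of 0.13. In simulated data, a true log2 change of 0.5 had a median estimate of 0.38 and was called for 32 of 100 probes.

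**Figure D1:**
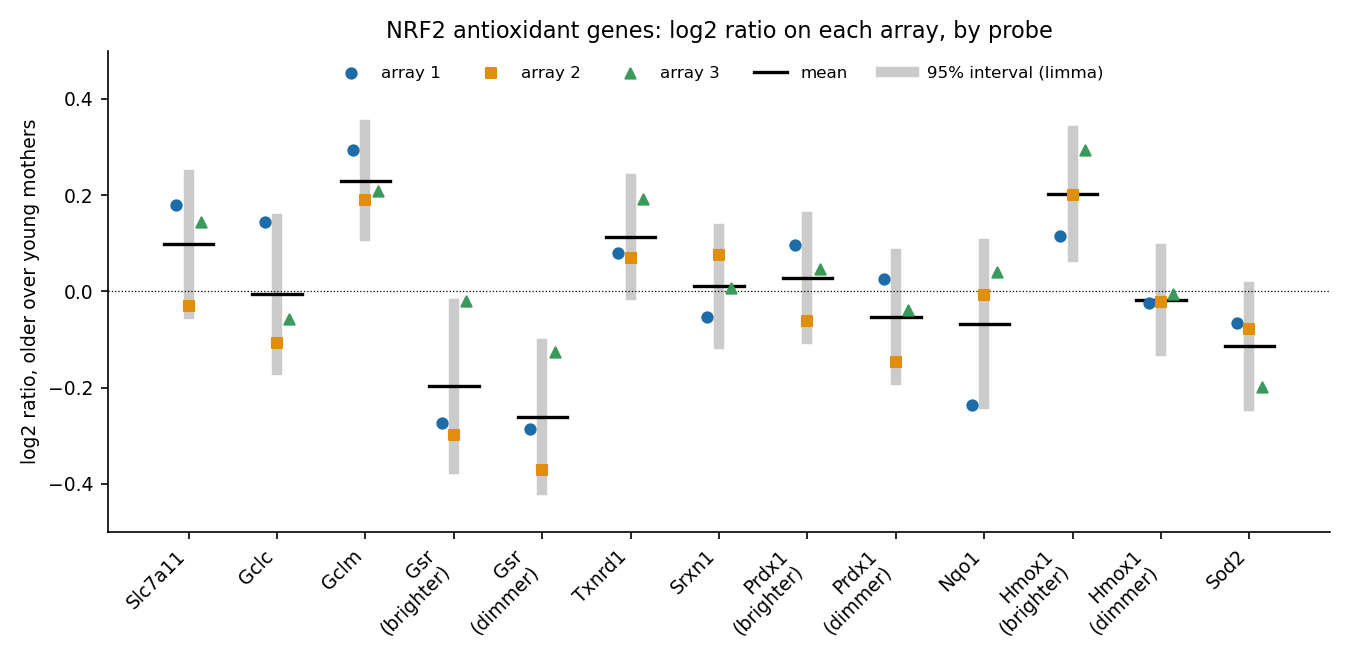
Log2 ratio of older over young mothers (vertical axis) for the 13 probes of the 10 genes (horizontal axis), with 1 point per array, the mean as a black bar and the 95% interval of limma in grey. Gclm lies above 0 on all 3 arrays (0.29, 0.19 and 0.21), both Gsr probes lie below 0, and the Hmox1 probes differ from each other; under median centring every gene of the set is below 0.

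All ratios are given after normexp background correction and loess, a smoothing that removes the trend of the ratio with brightness within each array. That step bears on the sign of every gene of the set with a mean above 0. The median signal over background was 54.8 to 59.3 in Cy3, the dye of the older mothers, and 144 to 155 in Cy5. With the arrays only centred on their median, the 1000 dimmest genes had a median log2 ratio of 0.43 and the 1000 brightest one of -0.78. The median of all genes then shifted to -0.40, that of the set to -0.54, and 10 of the 10 genes were below 0. Relative to the median of all genes the set's median was -0.13, with 4 of 10 genes above it. By limma, 0 of the 10 genes were then higher (0 at an unadjusted p under 0.05) and 7 were lower, and over all probes 5996 were higher and 17006 lower, against 2189 and 2946 after loess.

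**Figure D2:**
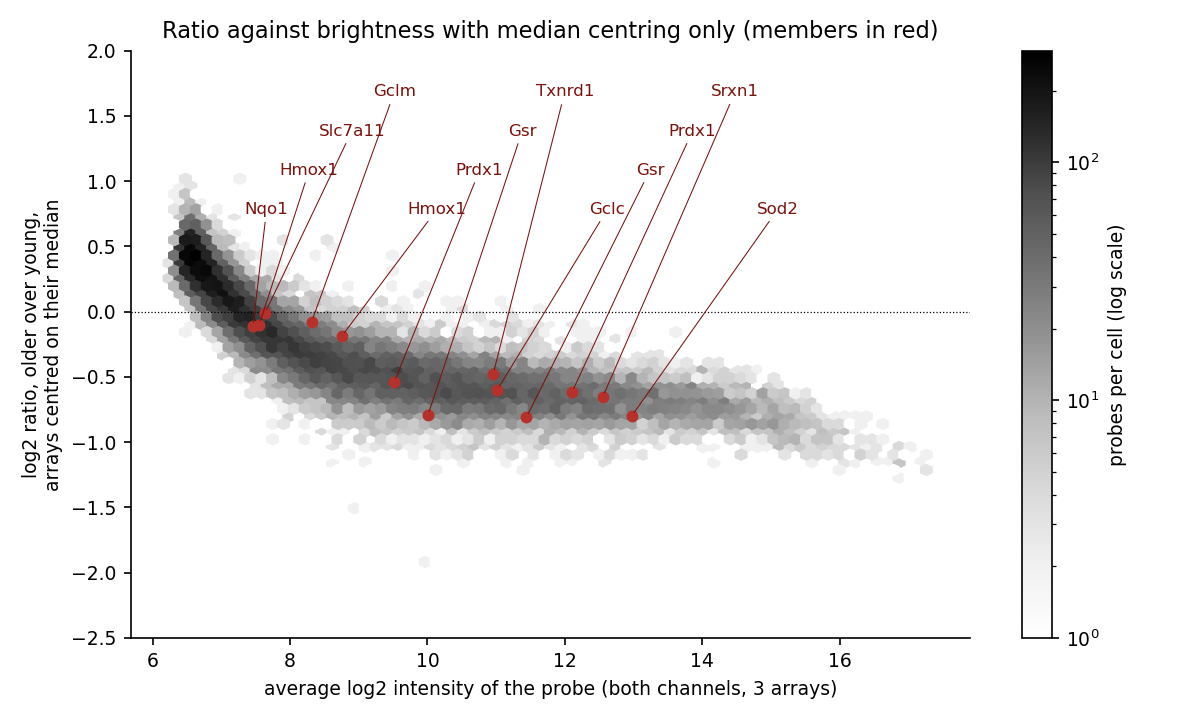
Log2 ratio of older over young mothers with median centring only (vertical axis) against the average log2 intensity of each probe over both dyes and 3 arrays (horizontal axis), with all tested probes in grey and the probes of the set in red. The ratio falls with brightness, and the set's probes, between 7.46 and 12.98 on the intensity axis, lie along the same slope as the other probes.

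Slc7a11 encodes the transporter subunit that exchanges glutamate for cystine and so supplies the cysteine of glutathione. Its normalized intensity was 195, 193 and 229 in the older-mother pools and 172, 197 and 207 in the young-mother pools 1, 2 and 3. The pools of the groups overlapped. Its log2 ratio was 0.18, -0.03 and 0.14 on arrays 1, 2 and 3, a mean of 0.10 ± 0.11 (SD, n = 3 arrays; limma adjusted p = 0.263), and it turned to -0.01 under median centring. The probe lies at chr3:50169700-50169759 in the mouse build mm9, which is the build the file headers name for all probe positions.

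Gclc and Gclm encode the catalytic and the modifier subunit of glutamate-cysteine ligase, the rate-limiting enzyme of glutathione synthesis. The Gclm probe, the single probe behind the set's 1 call, is printed here because the 60 bases it reads are placed over a stretch of 2636 bases (chr3:121962174-121964809, mm9, no strand column in the annotation), so its target is split by at least 1 gap in the genome. It has 1 reading frame without a stop codon.

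Gclm probe: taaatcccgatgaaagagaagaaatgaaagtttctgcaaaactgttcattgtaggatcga

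Gclm had a normalized intensity of 347, 339 and 350 in the older-mother pools and of 283, 297 and 303 in the young-mother pools. Every older-mother pool was above every young-mother pool, with group means of 345 ± 5.92 and 295 ± 10.4 (SD, n = 3 pools). How many of all genes separate in this way was not computed, here or for Gsr and Hmox1. The log2 ratio was 0.29, 0.19 and 0.21 on the 3 arrays, a mean of 0.23 ± 0.06 (95% interval 0.11 to 0.35; limma adjusted p = 0.0313). Leaving out array 1, array 2 or array 3 ended the call, with limma adjusted p-values of 0.0689, 0.129 and 0.0846 and mean log2 ratios of 0.20, 0.25 and 0.24. Under median centring the mean was -0.08, which was 0.33 above the median of all genes. Median centring leaves the trend with brightness in, so this is no sign of a rise. The dim probes of Nqo1 and Slc7a11 and the dimmer Hmox1 probe, none of which passed, were 0.29, 0.39 and 0.30 above that median.

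Gclc, the partner subunit, had a normalized intensity of 2233, 2000 and 1986 in the older-mother pools and 2019, 2154 and 2066 in the young-mother pools. The pools overlapped, with pool 1 higher and pools 2 and 3 lower in the older-mother group. Its log2 ratios of 0.14, -0.11 and -0.06 averaged -0.01 ± 0.13 (limma adjusted p = 0.949), with the probe at chr9:77641296-77641355 (mm9). The ratio of Gclm exceeded that of Gclc by 0.15, 0.30 and 0.26 on arrays 1, 2 and 3, a mean of 0.24 ± 0.08. All 3 arrays showed this direction, but an exact two-sided sign-flip test gave p = 0.25, the smallest that 3 arrays allow, as it did for each of the 4 differences within the set that were computed (Benjamini-Hochberg adjusted 0.25).

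Gsr encodes glutathione reductase, which returns oxidised glutathione to its reduced form with NADPH. Its brighter probe had a normalized intensity of 2400, 2545 and 2877 in the older-mother pools and 2900, 3128 and 2918 in the young-mother pools. The older-mother pools were all below the young-mother pools, and pool 3 was nearest to them. The log2 ratios of -0.27, -0.30 and -0.02 averaged -0.20 ± 0.15 (95% interval -0.37 to -0.03; limma adjusted p = 0.0965), which did not pass. The dimmer probe had intensities of 919, 871 and 1041 against 1121, 1126 and 1137, again without overlap. Its log2 ratios of -0.29, -0.37 and -0.13 averaged -0.26 ± 0.12 (95% interval -0.41 to -0.11; limma adjusted p = 0.0412), so this probe fell. Across all probes tested, 7.92% were higher and 10.7% were lower.

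The call of the dimmer Gsr probe ended without array 1, array 2 or array 3, with limma adjusted p-values of 0.0944, 0.197 and 0.0611, with Agilent's processed signals (0.112) and with an offset of 16 (0.0636). Both probes lie on chromosome 8 in mm9, the brighter at chr8:34808488-34808547 and the dimmer at chr8:34808413-34808472. The brighter probe was 0.01, 0.07 and 0.11 above the dimmer one in log2 ratio on the 3 arrays, a mean difference of 0.06 ± 0.05.

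Txnrd1, Srxn1 and Prdx1 form a chain in which thioredoxin reductase 1 recharges thioredoxin, thioredoxin recharges peroxiredoxin 1, a peroxidase, and sulfiredoxin 1 repairs over-oxidised peroxiredoxins. None of them passed the test. The promoters of Gclm, Prdx1 and Srxn1 are printed because they show the motifs that this family is known for, beside 1 gene that was called and 2 that were not. The sequences are those of RefSeq on GRCm38.p6, the 250 bases before the gene's start on the plus strand. Capitals mark the core of the antioxidant response element, TGACNNNGC, and the AP-1 site, TGANTCA, both searched on both strands.

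Gclm promoter, chr3:122245307-122245556: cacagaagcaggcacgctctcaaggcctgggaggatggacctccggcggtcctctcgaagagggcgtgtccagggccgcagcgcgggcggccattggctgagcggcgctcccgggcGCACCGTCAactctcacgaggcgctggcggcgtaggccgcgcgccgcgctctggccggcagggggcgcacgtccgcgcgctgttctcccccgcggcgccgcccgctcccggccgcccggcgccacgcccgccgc
Prdx1 promoter, chr4:116685349-116685598: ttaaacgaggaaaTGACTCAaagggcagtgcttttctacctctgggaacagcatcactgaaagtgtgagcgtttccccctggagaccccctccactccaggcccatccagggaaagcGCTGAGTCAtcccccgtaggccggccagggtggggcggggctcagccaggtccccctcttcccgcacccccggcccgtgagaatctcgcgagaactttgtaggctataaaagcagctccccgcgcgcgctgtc
Srxn1 promoter, chr2:152105274-152105523: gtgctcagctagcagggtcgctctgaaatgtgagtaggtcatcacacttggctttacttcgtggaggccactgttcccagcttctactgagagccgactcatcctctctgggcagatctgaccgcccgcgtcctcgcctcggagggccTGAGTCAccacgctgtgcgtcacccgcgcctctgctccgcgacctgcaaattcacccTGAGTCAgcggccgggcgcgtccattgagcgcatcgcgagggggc

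In Gclm the capitals are GCACCGTCA, the reverse strand of the element core, 134 to 126 bases before the start. In Prdx1 the first capitals are an AP-1 site 237 to 231 bases before the start, and the second, GCTGAGTCA, hold an element core at 133 to 125 bases that overlaps an AP-1 site. In Srxn1 both capital runs match the AP-1 site and not the element core as searched, 102 to 96 and 45 to 39 bases before the start. With the bases that follow, the second run reads TGAGTCAGC, which differs from the searched core only by G in place of C after TGA. Wider forms of the element were not searched. The match to the searched core lies 28 to 36 bases after the start, outside the printed bases. Txnrd1 had a core, GCTTTGTCA, 92 to 84 bases before its start. RefSeq entries were at hand for 7 of the 10 genes, with 9 windows of 300 bases that reach 50 bases past the start, and Hmox1, Gclc and Gsr were not among them. The element core was in 4 of these 9 windows, each of a different gene, and in 12.4% of all 32851 windows. The AP-1 site was in 2 of the 9 windows and in 7.81% of all. A match is a description of letters, and genes with such a match had values on both sides of the threshold.

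Txnrd1 had a normalized intensity of 1928, 2040 and 2249 in the older-mother pools and 1824, 1944 and 1969 in the young-mother pools. Each older-mother pool was above its partner on the array, but the groups overlapped. Its ratios of 0.08, 0.07 and 0.19 (log2) averaged 0.11 ± 0.07 (95% interval -0.01 to 0.23; limma adjusted p = 0.147), with a value of -0.48 under median centring. The probe lies at chr10:82360230-82360289 (mm9).

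Srxn1 had a normalized intensity of 5956, 6221 and 5915 in the older-mother pools and 6177, 5901 and 5884 in the young-mother pools. The groups overlapped and the sign differed between arrays. On the log2 scale, ratios of -0.05, 0.08 and 0.01 averaged 0.01 ± 0.06 (95% interval -0.11 to 0.13; limma adjusted p = 0.889; -0.65 under median centring), for the probe at chr2:151937009-151937068 (mm9).

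Prdx1 had a normalized intensity of 4586, 4211 and 4564 against 4288, 4395 and 4416 for its brighter probe, and of 736, 706 and 717 against 723, 782 and 737 for its dimmer one. Both probes overlapped between the groups, and on both the second array was the lowest. For the brighter probe, the log2 ratios, 0.10, -0.06 and 0.05, averaged 0.03 ± 0.08 (limma adjusted p = 0.716; -0.62 under median centring). Those of the dimmer probe, 0.03, -0.15 and -0.04, averaged -0.05 ± 0.09 (limma adjusted p = 0.483). The brighter probe was higher in log2 ratio by 0.07, 0.09 and 0.09, a mean of 0.08 ± 0.01, so the probes of Prdx1 moved together from array to array while their mean signs differed. They lie at chr4:116371818-116371877 and chr4:116372422-116372481 (mm9).

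Nqo1, a quinone reductase that spares cells the radicals of 1-electron reduction, is a widely used reporter gene of NRF2 activity. Its normalized intensity was 163, 177 and 176 in the older-mother pools and 191, 178 and 171 in the young-mother pools. The groups overlapped, and pool 1 of the older mothers was the lowest. Nqo1 had log2 ratios of -0.24, -0.01 and 0.04, which averaged -0.07 ± 0.15 (95% interval -0.23 to 0.10; limma adjusted p = 0.488). Without array 1 the mean was 0.02, and with Agilent's processed signals it was -0.26 (limma adjusted p = 0.165). The probe lies at chr8:109912440-109912499 (mm9).

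Hmox1 encodes haem oxygenase 1, which opens the haem ring and frees iron, carbon monoxide and biliverdin. Its brighter probe had a normalized intensity of 435, 458 and 501 in the older-mother pools and 402, 399 and 408 in the young-mother pools. All older-mother pools were above all young-mother pools. The log2 ratios of 0.12, 0.20 and 0.29 averaged 0.20 ± 0.09 (95% interval 0.07 to 0.33; limma adjusted p = 0.0517), which just missed the threshold, and the mean was -0.19 under median centring. With Hmox1 counted by the mean over its probes, the value was 0.09 (limma adjusted p = 0.180). The call was made in 6 alternatives, among them the stricter filter on dim probes (0.0491), no background correction (0.0253) and separate channels with the array as a block (0.0327). The looser threshold of 0.10, on the unchanged p-value, is also among the 6. Without array 1, array 2 or array 3 it was not made (limma adjusted p = 0.0565, 0.206 and 0.157).

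The dimmer Hmox1 probe gave other values. Its normalized intensity was 195, 181 and 185 in the older-mother pools and 198, 184 and 185 in the young-mother pools, so that the groups overlapped. Ratios of -0.02, -0.02 and -0.01 (log2) averaged -0.02 ± 0.01 (95% interval -0.12 to 0.09; limma adjusted p = 0.784). The brighter probe was higher by 0.14, 0.22 and 0.30 on the 3 arrays, a mean of 0.22 ± 0.08. The dimmer probe stood 78, 70 and 76 units above its local background in Cy3 on the 3 arrays, before the offset of 50 that pulls the ratios of dim probes toward 0. With an offset of 16 its mean log2 ratio was -0.02 as well, and with Agilent's processed signals it was 0.10. It is printed because Hmox1 reads differently by probe, and it has 1 reading frame without a stop codon, while the brighter probe has 0.

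Hmox1 dimmer probe, chr8:77620797-77620856 (mm9, no strand column): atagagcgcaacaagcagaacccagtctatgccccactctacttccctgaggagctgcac

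The brighter Hmox1 probe lies at chr8:77624207-77624266 (mm9).

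Sod2, the manganese superoxide dismutase of mitochondria, had a normalized intensity of 7426, 8240 and 7586 in the older-mother pools and 7778, 8695 and 8703 in the young-mother pools. Each older-mother pool was below its partner, but the groups overlapped. The log2 ratios of -0.07, -0.08 and -0.20 averaged -0.11 ± 0.07 (95% interval -0.24 to 0.01; limma adjusted p = 0.151). The probe lies at chr17:13208074-13208133 (mm9).

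**Figure D3:**
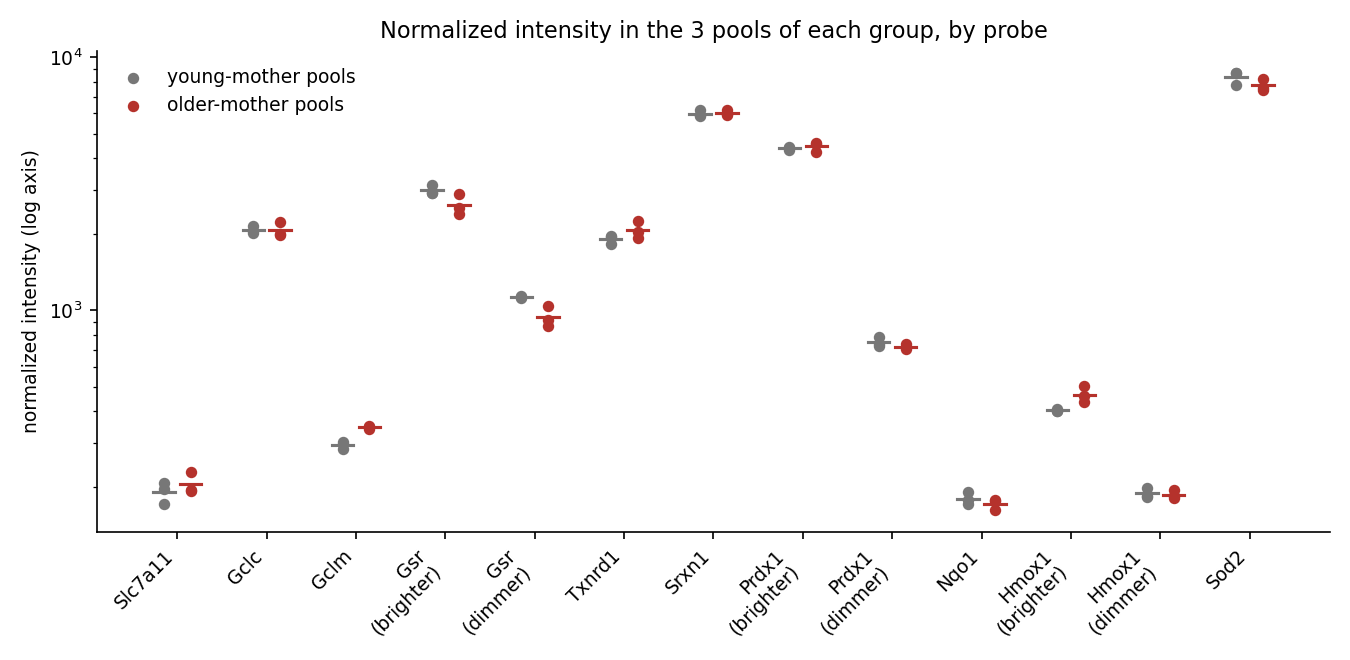
Normalized intensity (vertical axis, log scale, offset included) of the 13 probes in the 3 young-mother pools (grey) and the 3 older-mother pools (red), with the group means as bars. The pools separate for Gclm, for both Gsr probes and for the brighter Hmox1 probe, and overlap for the others. How many of all probes separate in this way was not computed, so the separation is no result about the set. Heights of different probes cannot be compared.

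The wider pathway was described through 6 lists of 74 genes, none of them in the set of 10, of which 71 were tested. Of these, 6 were higher (8.45%, against 7.34% of all genes) and 8 were lower (11.3%, against 12.2%), while 57 did not pass by limma. Their median log2 ratio was -0.03, equal to that of all genes at this precision. Gsta1 had no probe on the array, and Gsta2 and Ugt1a6a were not well above background.

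Among 10 regulators of NRF2, 2 rose and 1 fell. Maff, a small MAF protein that pairs with NRF2 at the antioxidant response element, had a normalized intensity of 221, 241 and 205 in the older-mother pools and 109, 113 and 116 in the young-mother pools. It rose by 1.97-fold, with log2 ratios of 1.02, 1.09 and 0.82 and a mean of 0.98 ± 0.14 (limma adjusted p = 0.0117). The mean was 1.00 under median centring, 1.26 with an offset of 16 and 1.82 with Agilent's processed signals, so its size depends on the processing. The call held without each array in turn. Nfe2l2 itself had intensities of 689, 697 and 867 against 585, 643 and 710, which overlapped between the groups. It rose by log2 ratios of 0.24, 0.12 and 0.29, a mean of 0.21 ± 0.09 (limma adjusted p = 0.0457). Its mean was, however, -0.26 under median centring, which leaves the trend with brightness in. This was 0.14 above the median of all genes. Its call was also lost with separate channels (adjusted p = 0.126), with no filter (0.0524) and, as its limma adjusted p-values of 0.10, 0.117 and 0.142 show, without array 1, array 2 or array 3.

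Rbx1, the RING subunit of the ligase that degrades NRF2, fell by log2 ratios of -0.27, -0.26 and -0.15, a mean of -0.22 ± 0.07 (limma adjusted p = 0.0358), while its other probes averaged from -0.10 to 0.03. Averaged over its probes Rbx1 stood at -0.10 (adjusted p = 0.142). Keap1, the sensor that holds NRF2, had ratios of 0.05, 0.07 and 0.21, a mean of 0.11 ± 0.08 (limma adjusted p = 0.175; -0.48 under median centring). Bach1, a repressor that competes for the same elements, Hmox1 among its known targets, averaged 0.02 ± 0.04 (limma adjusted p = 0.799; -0.39 under median centring). Neither passed the test.

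Of 20 tested genes of glutathione use and transfer, 0 rose and 2 fell by limma, with a list median of -0.07. At an unadjusted p under 0.05, 1 was higher and 8 were lower, beside 15.1% and 24.3% of all genes. Gstm2, a glutathione transferase, fell by log2 ratios of -0.62, -0.86 and -0.36, a mean of -0.61 ± 0.25 (limma adjusted p = 0.0215). Its other probes ranged from -0.42 to 0.24 and the mean over probes was -0.26, and it belongs to a family of near-identical genes, so its level is uncertain. Abcc4, an efflux pump for organic anions, fell by ratios of -0.57, -0.40 and -0.25, a mean of -0.41 ± 0.16 (limma adjusted p = 0.0235).

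Of 17 genes of the thioredoxin, peroxiredoxin and superoxide enzymes, 2 rose and 3 fell. Txnip, which binds and inhibits thioredoxin, had intensities of 623, 731 and 737 against 449, 432 and 434 and rose by 1.58-fold. Its log2 ratios were 0.47, 0.76 and 0.76, a mean of 0.66 ± 0.17 (limma adjusted p = 0.0148; 0.22 under median centring), while its other probe averaged 0.05 and the mean over both was 0.36. Sesn1, a stress-inducible sestrin, rose by ratios of 0.31, 0.33 and 0.22, a mean of 0.29 ± 0.06 (limma adjusted p = 0.0223), and was at -0.31 under median centring.

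Sod1, the cytosolic copper-zinc superoxide dismutase, had intensities of 20933, 19583 and 20886 against 24932, 24446 and 24939. It fell by ratios of -0.25, -0.32 and -0.26, a mean of -0.28 ± 0.04 (limma adjusted p = 0.0214). Its mean was -0.18 with Agilent's processed signals (adjusted p = 0.0920). Txnrd3, a testis-rich thioredoxin reductase with a glutaredoxin domain, fell by a mean of -0.41 ± 0.14 (limma adjusted p = 0.0215). Sod3, the secreted superoxide dismutase, named after its value was seen, fell by a mean of -0.36 ± 0.15 (limma adjusted p = 0.0277).

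In the remaining lists single genes passed. Taldo1, the transaldolase of the pentose phosphate pathway, was the 1 of 6 NADPH genes that rose, by ratios of 0.35, 0.22 and 0.22, a mean of 0.26 ± 0.08 (limma adjusted p = 0.0282), with -0.48 under median centring. Of 8 haem and iron genes, Blvrb, biliverdin reductase B, rose by 0.25, 0.16 and 0.47, a mean of 0.29 ± 0.16 (limma adjusted p = 0.0427), with -0.14 under median centring. In the same list Slc40a1, the iron exporter ferroportin, fell by ratios of -0.34, -0.44 and -0.15, a mean of -0.31 ± 0.14 (limma adjusted p = 0.0343). Of 10 tested genes of quinone and carbonyl detoxification, 0 rose by limma (0 also at an unadjusted p under 0.05, where 3 were lower, beside 24.3% of all genes), and Cbr1, a carbonyl reductase, fell by ratios of -0.24, -0.19 and -0.17, a mean of -0.20 ± 0.04 (limma adjusted p = 0.0380).

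Besides Nfe2l2, leaving out any 1 of the 3 arrays ended the calls of Rbx1, Sesn1, Taldo1, Blvrb, Slc40a1 and Cbr1. Leaving out array 2 or array 3 ended those of Abcc4, Sod1, Sod3 and Txnrd3, leaving out array 1 or array 3 that of Gstm2, and leaving out array 3 that of Txnip. Agilent's processed signals ended the calls of Nfe2l2, Rbx1, Gstm2, Abcc4, Sesn1, Sod1, Sod3, Taldo1, Blvrb, Slc40a1 and Cbr1, with limma adjusted p-values from 0.0510 for Sesn1 to 0.0920 for Sod1. An offset of 16 ended those of Nfe2l2, Rbx1, Blvrb, Slc40a1 and Cbr1, with limma adjusted p-values from 0.0535 for Slc40a1 to 0.0599 for Nfe2l2. With 1 array left out, between 1 and 3 pathway genes were higher and between 0 and 5 were lower.

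**Figure D4:**
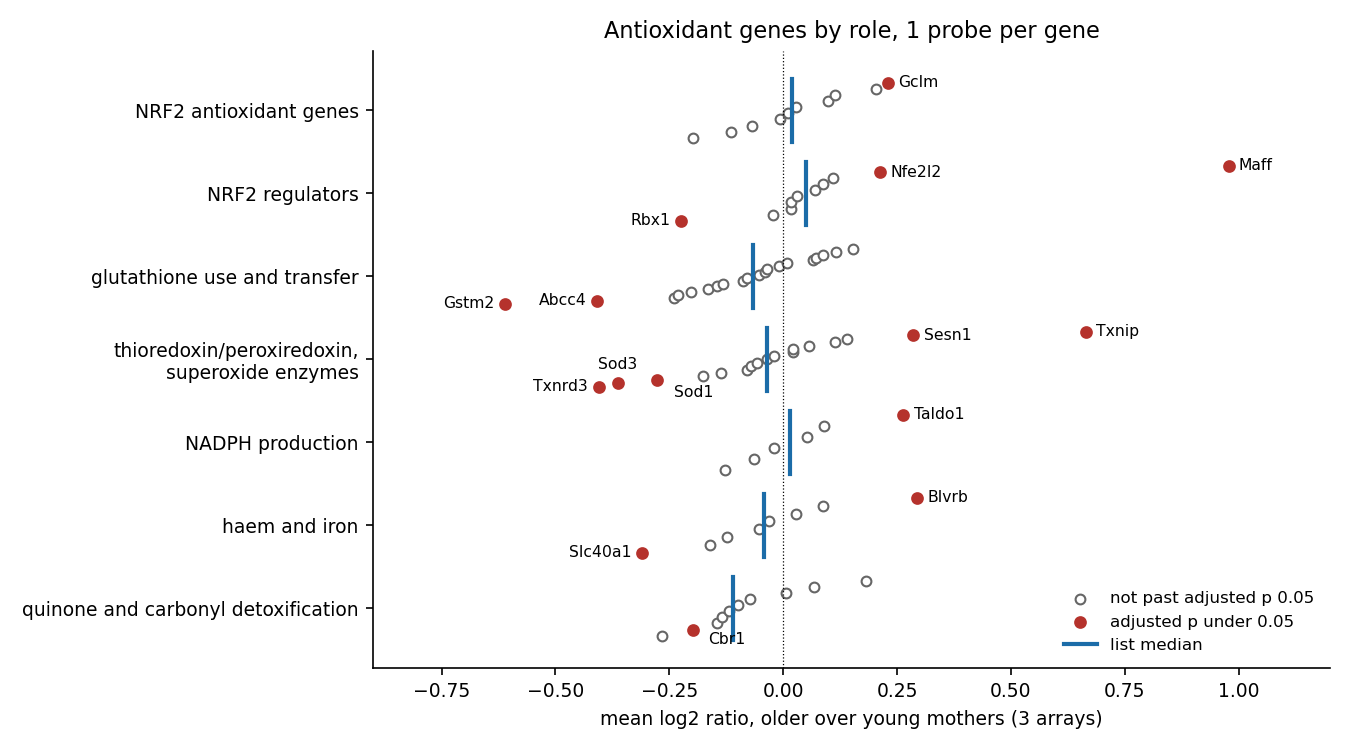
Mean log2 ratio of older over young mothers over 3 arrays (horizontal axis) for each tested gene of the set of 10 and of the 6 further lists (rows), with genes at an adjusted p under 0.05 filled and named and the list median as a blue bar. List medians lie between -0.11 and 0.05; Maff and Txnip lie farthest to the right and stay above 0 under median centring, whereas Gclm, Nfe2l2, Sesn1, Taldo1 and Blvrb turn below 0.

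Markers of other tissue differed between the pools. In bulk tissue, fewer cells of a type and less RNA per cell cannot be told apart. All 8 markers of choroid plexus epithelium had negative means, with medians of -0.85, -2.14 and -0.37 on arrays 1, 2 and 3, and their summed intensity was 9057 to 67879 in the older-mother pools against 77746 to 114055 in the young-mother pools. Kcnj13 and Slc4a5 among them fell by limma, where 12.2% of all genes were lower. At an unadjusted p under 0.05 all 8 were lower, beside 24.3% of all genes. All 8 markers of leptomeningeal fibroblasts had negative means as well, with sums of 6367 to 10312 against 8668 to 10627. Of them 4 were past the test, and 7 were lower at an unadjusted p under 0.05. Gsr, Gstm2 and Slc40a1 had, as the medians of both tissues did, their lowest ratio on array 2 and the one nearest 0 on array 3. Other genes that fell had another order: Abcc4, Rbx1 and Cbr1 were lowest on array 1, and Sod1 was nearest 0 there. How many of all genes have either order was not computed. The part of these tissues in the values of any of these genes was not tested.

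The astrocyte markers, of the cell type in which this programme is best known, had a median of 0.02 with 1 of 8 higher (Gfap) and sums of 91704 to 96485 against 93163 to 97313. Of 8 markers each, those of hippocampal neurons (1 higher, 1 lower, median -0.04), microglia (1 and 1, median 0.04), oligodendrocytes (0 and 0, with 1 and 1 at an unadjusted p under 0.05, median -0.01) and endothelial cells (1 and 2, median -0.04) showed no common direction by limma. Across all genes tested, 7.34% were higher and 12.2% were lower. Of 6 tested red blood cell markers 1 was lower (median -0.13). Of 4 tested markers of neutrophils and blood phagocytes 3 were higher (S100a8, S100a9 and Camp), beside 7.34% of all genes, with sums of 666 to 776 against 536 to 552. The fourth, Ly6g, averaged -0.37 ± 0.39 (limma adjusted p = 0.123), while Ngp, Ccr2, Retnlg and Ltf were not well above background. The part of these cells in the values of Hmox1 and Gclm was not tested.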

How the data were processed

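Total hippocampal RNA of 3 older-mother and 3 young-mother pools was labelled in Cy3 and Cy5 and hybridised to 3 Agilent arrays (60-base probes). The authors scanned and read them with Feature Extraction 10.10.1.1, and probe positions are in mm9, per the file headers. The files give the deposited intensity of each spot in both dyes, its flags, and a log10 ratio of Cy5 over Cy3 that was not used here. The deposited table of log2 ratios of Cy3 over Cy5 equalled, within 5e-10, loess after normexp (offset 50) on the median signals. It served as an alternative, and no value of the 10 genes on an array differed from it by more than 0.0802.

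Here, mean signals were corrected with normexp (offset 50) against the median local background and normalized within each array by loess (span 0.3, weight 0 for control spots and outliers), with limma 3.58.1 in R 4.3.3. Usable spots of a probe were averaged. A probe was kept where every array flagged it as well above background in 1 and the same dye: 27630 of 39429 were kept, 11798 were dim and 1 had no usable spot on an array. The median signal over background was 54.8 to 59.3 in Cy3 and 144 to 155 in Cy5, and 0 spots were saturated. The mean log2 ratio was tested against 0 with limma (2 residual degrees of freedom, 3.42 prior), two-sided, with Benjamini-Hochberg adjustment over the kept probes and a threshold of 0.05, after a check on simulated data. The number of arrays limits the precision. Normalized intensities were taken per dye after loess and Aquantile. Gene names were updated through RefSeq on GRCm38.p6 (28025 probes matched, 1651 changed, 5670 without a name), and a gene's value is that of its brightest kept probe.

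The 10 genes, the further lists and the tests were chosen with earlier results of these data known. All 10 genes are named. From the further lists, Nfe2l2, Keap1, Bach1 and up to 4 genes per list past the threshold, by smallest adjusted p, are named. Sod3, the fifth of its list, was added after its value was seen. Alternatives were another offset, no background correction, Agilent's processed signals, the deposited table, median centring, scaling between arrays, no and a stricter filter, a variance trend, array weights, separate channels, the mean over probes, other thresholds and leaving out each array.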

Additional observations from a re-analysis of the deposited data

How the results depend on the processing

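Over 16 settings other than median centring, the mean log2 ratio of Gclm stayed between 0.20 and 0.29 with limma adjusted p-values of 0.00636 to 0.129, and it passed in 12 of them. The limits are the 3 arrays, the fixed dye order, for which no setting can correct, the trend of the ratio with brightness that loess removes, and the dim Cy3 signal, which leaves the ratios of dim probes such as those of Nqo1, Slc7a11 and the dimmer Hmox1 probe compressed toward 0.

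Median centring turned the signs of Gclm (-0.0758), Hmox1 (-0.19), Slc7a11 (-0.0139), Txnrd1 (-0.48), Srxn1 (-0.65), Prdx1 (-0.62), Nfe2l2 (-0.26), Keap1 (-0.48), Bach1 (-0.39), Sesn1 (-0.31), Taldo1 (-0.48) and Blvrb (-0.14). The median of all genes was -0.40 under it. Other sign changes were of values near 0, except that of the dimmer Hmox1 probe, which was 0.10 with processed signals. In the deposited table Gclc was 0.0066 and Bach1 -0.0296. With array weights Bach1 was -0.0086 and Prdx1 -0.032. Srxn1 was -0.0022 with processed signals, and Prdx1 -0.013 as the mean over probes. Without 1 array, values ran from -0.0066 to 0.0364 for Bach1, -0.0821 to 0.0439 for Gclc, -0.122 to 0.0161 for Nqo1, -0.0071 to 0.0722 for Prdx1 and -0.0226 to 0.0419 for Srxn1. The cause of these was not tested.

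Of the 10 genes, the count of higher ones went from 1 to 2 with no background correction, scaling between arrays, the stricter filter, array weights, separate channels with the array as a replicate block and a threshold of 0.10, and to 0 with median centring and a threshold of 0.01. The count of lower ones went from 0 to 1 with array weights and a threshold of 0.10 and to 7 with median centring. Without 1 array, 0 to 0 were higher, where 2 were at an unadjusted p under 0.05 each time, and 0 were lower, where 0 or 1 were at an unadjusted p under 0.05.

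Of the pathway genes, 6 were higher, 2 with processed signals, 0 at a threshold of 0.01, 3 with median centring and 1 to 3 without 1 array. Of them 8 were lower, 1 with processed signals, 0 at 0.01, 17 at 0.10, 25 with array weights, 62 with median centring, 14 with no background correction and 0 to 5 without 1 array.

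Of all probes, 2189 were higher, 1169 with processed signals, 1 at 0.01, 3862 at 0.10, 5747 with array weights, 5996 with median centring and 29 to 1459 without 1 array. Of them 2946 were lower, 1449 with processed signals, 0 at 0.01, 5210 at 0.10, 7543 with array weights, 17006 with median centring and 0 to 1906 without 1 array. At an unadjusted p under 0.05, 4529 probes were higher and 6143 lower in the main setting. The mean over probes gives no count of probes. No paired analysis was possible beyond the arrays themselves, because each array already holds 1 pool of each group.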
